A study of Bos taurus with 6 samples.

Results

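The miRNAs described here are those best known from white blood cells, namely both arms of miR-142 (bta-miR-142-5p and bta-miR-142-3p), bta-miR-150, bta-miR-155 and bta-miR-223. They were chosen by name. The deposited count table had a row for 4 of the 5, among 359 known bovine miRNAs (names starting with bta-) and 706 rows in all. No row carried the name bta-miR-142-3p, and it is not analysed here.

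Small RNAs of serum extracellular vesicles (EVs), membrane-bound particles that cells release into the blood, were sequenced as 1 library per cow. The 6 animals were female Holstein cows in mid lactation, kept in chambers at constant temperature and humidity and bled on day 30. The groups of 3 cows differed in ration. Controls received a total mixed ration (TMR) whose forage included alfalfa hay. For the tested group, soybean hull and whole cotton seed stood in for a share of that hay. Counts on known miRNAs ranged from 1226928 to 2088249 per library. Levels are given in CPM, counts scaled to a total of 1000000 known miRNA counts in the library. Fold changes come from edgeR's quasi-likelihood test, with libraries scaled by TMM, which sets the most extreme miRNAs aside.

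Mature miRNAs are short RNAs that pair with target mRNAs mainly through the seed, bases 2 to 8, and lower the output of those mRNAs. miR-142 is made throughout the blood cell lineages. miR-150 is abundant in mature B and T lymphocytes, where it restrains the transcription factor MYB. miR-155 is induced in activated lymphocytes and macrophages and restrains the signalling inhibitors SOCS1 and SHIP1. miR-223 is abundant in neutrophils and monocytes, though not confined to them, and restrains MEF2C. All of them can leave the cell in vesicles. In a serum EV library, fewer vesicles from a cell type and less of a miRNA per vesicle cannot be told apart.

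The sequences listed in the deposited table are shown to set the 4 miRNAs apart from each other, with the seed in capitals and U written as T.
bta-miR-142-5p: cATAAAGTagaaagcactac
bta-miR-150: tCTCCCAAcccttgtaccagtgt
bta-miR-155: tTAATGCTaatcgtgataggggt
bta-miR-223: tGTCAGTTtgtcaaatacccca
They have 4 different seeds, and their lengths run from 20 to 23 nt. None of the other 705 rows shares one of these seeds at bases 2 to 8, and none holds a listed sequence that contains a member's or lies inside it. The nearest listed sequence is at least 7 single-base edits away, so the 4 rows do not overlap with another listed miRNA. In the RefSeq gene table of assembly ARS-UCD2.0, MIR142 lies inside the spans of TSPOAP1 and the long non-coding RNA gene LOC132342998. MIR223 lies inside those of VSIG4, a receptor of tissue macrophages, and the long non-coding RNA gene LOC132344326. Strand was not compared, so none of them is named as a host gene. Reads were matched to another assembly, ARS-UCD1.2, so no positions are given.

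All 4 miRNAs had counts in all 6 libraries, but none was abundant. Together they took 0.0386%, 0.0219% and 0.0196% of the known miRNA counts in control cows against 0.0439%, 0.0239% and 0.0124% in tested cows. The summed level averaged 267 ± 104 CPM (SD, n = 3) over control cows and 267 ± 160 (SD, n = 3) over tested cows. The leading miRNA of these libraries, bta-miR-26a, had a mean of 155114 CPM. Ranked by mean level, bta-miR-150 stood at 95, bta-miR-155 at 120, bta-miR-142-5p at 145 and bta-miR-223 at 162 among the 359 known miRNAs.

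**Figure D1:**
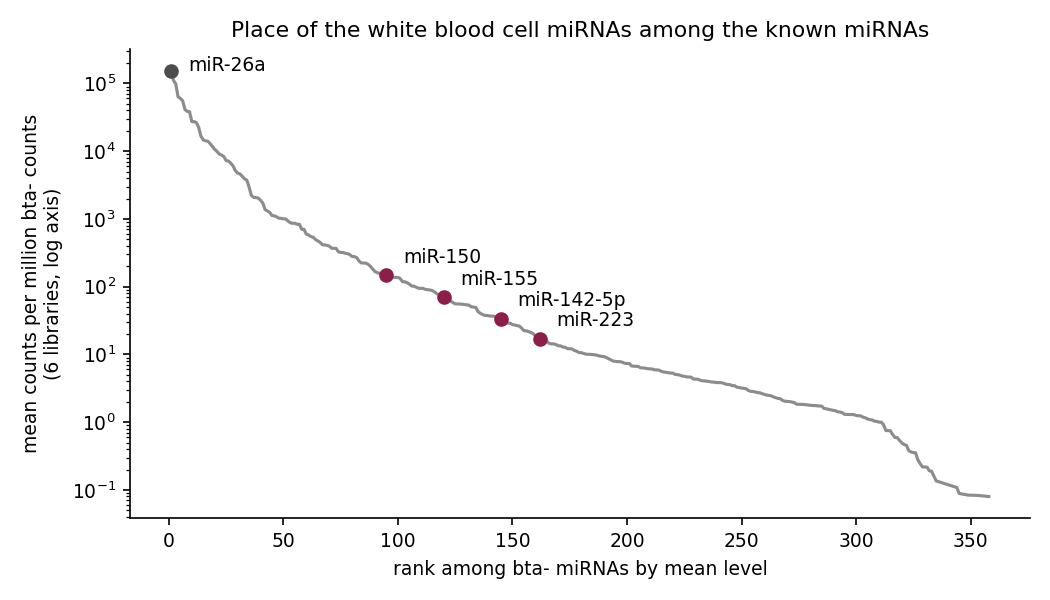
Mean level of each known miRNA over the 6 libraries (CPM, log axis) against its rank, with the 4 white blood cell miRNAs and the leading bta-miR-26a marked. The 4 lie between ranks 95 and 162, with means from 147 down to 16.9 CPM.

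The lymphocyte miRNA bta-miR-150 was the highest of the 4 by mean, with 1407 counts over the 6 libraries. Its level was 206, 119 and 64.8 CPM in control cows against 326, 113 and 52.2 in tested cows. Tested cow 1 was highest and tested cow 3 lowest, so the tested group enclosed the control group. The exact (Clopper-Pearson) 95% counting interval was 295 to 360 CPM in tested cow 1 and 184 to 230 in control cow 1, the next highest, and the pair did not overlap. Such intervals hold counting error of reads alone. PCR copies of a molecule are counted as separate reads, so the intervals can be too narrow even for the sampling of molecules. The log2 fold change of tested over control was 0.33 (standard error 0.73, 95% interval -1.24 to 1.89, adjusted p = 0.949 from edgeR), and it was -0.64 without tested cow 1.

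bta-miR-155, the miRNA of activated immune cells, had 63.1, 67.7 and 118 CPM in control cows against 36.7, 109 and 22.5 in tested cows. The highest levels were in control cow 3 and tested cow 2, and the lowest were in tested cows 1 and 3. Those 2 tested cows lay below every control cow, while tested cow 2 lay inside the control range. The log2 fold change was -0.60 (standard error 0.85, 95% interval -2.44 to 1.24, adjusted p = 0.881 from edgeR). Without tested cow 2 it was -1.62 with an unadjusted p of 0.121 from edgeR. It was the only one of the 4 whose log2 fold change kept its sign in all 17 alternative fits, from -1.62 to -0.15, and none of those fits passed the threshold.

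bta-miR-142-5p, the arm of miR-142 with a row, was uneven between cows. Control cow 1 had 95.6 CPM and the other control cows had 16.4 and 11.6. Tested cow 1 had 65.2 and the other tested cows had 10.6 and 3.35. Cow 1 of either group was thus well above the remaining 4, of which tested cow 3 was lowest with 7 counts. The highest library was 28.5 times the lowest. The log2 fold change was -0.63 (standard error 1.34, 95% interval -3.53 to 2.27, adjusted p = 0.947 from edgeR), and single cows decided it. Without control cow 1 it was 0.82, and without tested cow 1 it was -2.50 (unadjusted p of 0.165 from edgeR).

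bta-miR-223, abundant in myeloid cells, was the lowest of the 4, with 188 counts in all. It had 21.5, 14.9 and 2.01 CPM in control cows against 11.4, 6.39 and 45.5 in tested cows. Tested cow 3 was highest with 95 counts, and control cow 3 was lowest with 4. The intervals of these libraries, 36.8 to 55.6 and 0.548 to 5.15 CPM, did not overlap. The log2 fold change was 0.64 (standard error 1.61, 95% interval -2.83 to 4.12, adjusted p = 0.970 from edgeR), and without tested cow 3 it was -0.47.

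**Figure D2:**
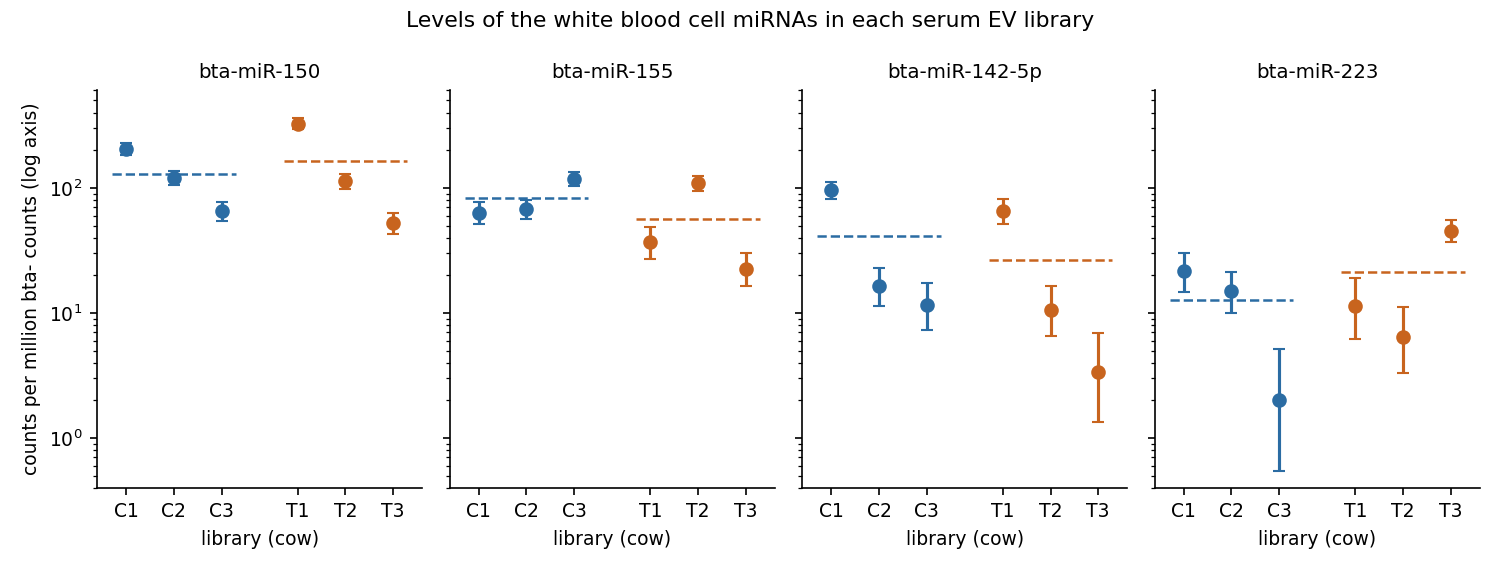
Level of each white blood cell miRNA in each library (CPM, log axis), with blue for control (C1 to C3), orange for tested (T1 to T3), bars for the exact 95% counting interval and dashed lines for group means. The groups overlap in all 4 panels, and the spread within a group exceeds the counting intervals.

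The question of the comparison was whether the changed ration moved these miRNAs. A miRNA was called at the threshold used for the study's heat map, an absolute log2 fold change above 1 at an unadjusted p under 0.05. None of the 4 was called, at a background of 20 of 623 miRNAs (3.21%) and of 3 of the 312 known miRNAs among them (0.962%), and 0 of the 4 had an unadjusted p below 0.05, where 29 of the 623 (4.65%) did. By the adjusted p alone, 0 of the 4 and 1 of the 623 (0.161%) passed. DESeq2 also called 0 of the 4 and 26 of the 623 miRNAs, and limma 0 of the 4 and 34 of the 623. Tested and control cows overlapped for all 4, while they were fully apart for 67 of the 623 miRNAs (10.8%). Their log2 fold changes had a median of -0.14, 2 above and 2 below 0, where the median over all 623 was 0.07. Group means of the level differed by less than the spread between cows for each of the 4 (two-sided exact permutation test, p = 0.9 for bta-miR-150, 0.5 for bta-miR-155 and bta-miR-142-5p and 0.7 for bta-miR-223). With 3 cows a group this test cannot give a p under 0.1. The 95% intervals of the fold changes all reach beyond 1 on the log2 scale in either direction, so a change of that size was not excluded for any of them.

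**Figure D3:**
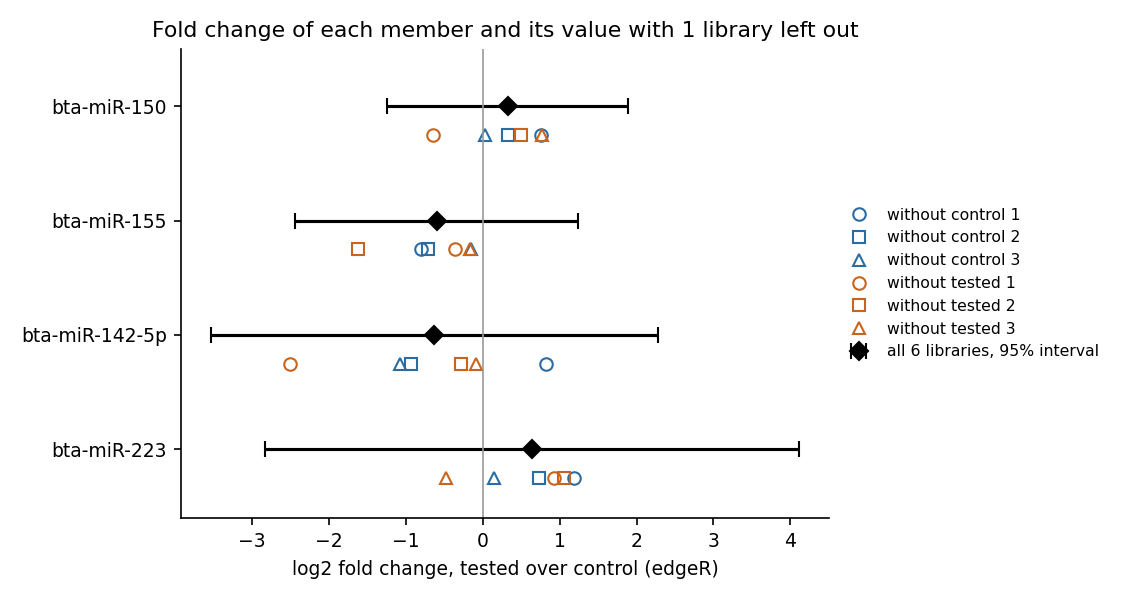
Log2 fold change of tested over control from edgeR for each white blood cell miRNA, with all 6 libraries (diamond, bar for the 95% interval) and with each library left out in turn (open symbols). Every interval spans 0, and the sign turned for 3 of the 4 miRNAs when a certain cow was left out.

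The spread between cows differed among the 4. The coefficient of variation of the level over the 6 libraries was 111% for bta-miR-142-5p, 91.6% for bta-miR-223, 70.2% for bta-miR-150 and 54.7% for bta-miR-155. The median over the 184 known miRNAs with a mean of at least 10 CPM was 36.9%. Among these 184, the coefficients stood at percentiles 89.1, 83.2, 75 and 59.8 in the same order, so bta-miR-155 was near the middle. The 184 were not matched to the 4 for level, and counting alone adds more spread at low counts. No test was made of the difference in spread.

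The make-up of the 4 differed from cow to cow, and ratios within a library do not depend on its total. bta-miR-150 led in 5 libraries, with 42.2% to 74.2% of the counts on the 4 miRNAs. In control cow 3 bta-miR-155 led with 60.1%. bta-miR-223 took 36.8% in tested cow 3 and between 1.02% and 6.83% in the other cows. The ratio of bta-miR-150 to bta-miR-223 was 9.58, 8 and 32.3 in control cows against 28.6, 17.8 and 1.15 in tested cows. It is a ratio of miRNA counts, not of cell types. The groups overlapped in this ratio, and tested cow 3 was by far the lowest. In the paper, tested cow 3 had the lowest miRNA content of all RNA samples, and control cow 3 the lowest RNA concentration. The library of tested cow 3 also had the most clean reads, 24187264. The part of RNA quality and depth in these ratios was not tested.

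**Figure D4:**
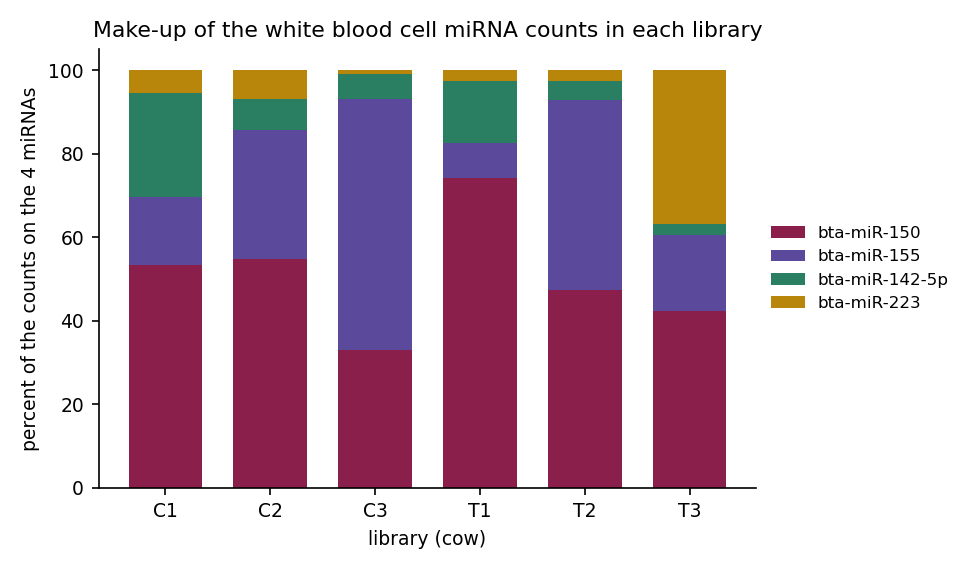
Percent of the counts on the 4 white blood cell miRNAs that fell on each, in each control (C1 to C3) and tested (T1 to T3) library. bta-miR-150 is the largest part in 5 bars, bta-miR-155 in C3 (60.1%), and bta-miR-223 stands out in T3 (36.8%).

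The order of the mean levels was not firm. Counts of mature miRNAs are not divided by length. bta-miR-150 exceeded bta-miR-155 in 5 of 6 libraries, by a mean log2 ratio of 1.01 ± 1.38 (SD, n = 6, two-sided exact permutation of signs, p = 0.125). bta-miR-155 exceeded bta-miR-142-5p in 4 of 6, by 1.68 ± 1.92 (SD, n = 6, exact permutation, p = 0.125). bta-miR-142-5p exceeded bta-miR-223 in 5 of 6, by 0.72 ± 2.41 (SD, n = 6, exact permutation, p = 0.531). No neighbours in this order differed beyond the spread between cows. The smallest p that 6 libraries allow is 0.0312 before any adjustment for the 3 comparisons.

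The profiles over the cows were compared on log2(level + 1). bta-miR-142-5p and bta-miR-150 ran together (Pearson r = 0.91, Spearman rho = 0.89 over 6 libraries), with r = 0.79 when control cow 1 and tested cow 1 were left out. bta-miR-155 and bta-miR-223 ran opposite to each other (r = -0.83, rho = -0.83), with r = -0.43 without control cow 3 and tested cow 3. For the other pairs r lay between -0.05 and 0.09 over the 6 libraries. Without the 2 cows farthest from the median, it went from 0.09 to 0.81 for bta-miR-142-5p with bta-miR-155 and from -0.03 to -0.65 for bta-miR-142-5p with bta-miR-223. In the same way it went from -0.05 to -0.83 for bta-miR-150 with bta-miR-155 and from 0.04 to 0.94 for bta-miR-150 with bta-miR-223, so no lack of relation can be read for these pairs. These are descriptions over 6 points that share the library totals, among 46 relations computed.

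The miRNAs of red blood cells moved with part of this pattern. The summed level of bta-miR-451, bta-miR-144 and bta-miR-486 was 28434, 16300 and 13468 CPM in control cows against 59608, 10840 and 8621 in tested cows. All 3 had counts in every library and 0 of the 3 were called, at a background of 3.21% of all miRNAs tested and 0.962% of known ones. Like bta-miR-150 and bta-miR-142-5p, this sum was highest in tested cow 1 and control cow 1 and lowest in tested cow 3. Its r with bta-miR-150 was 0.93 (rho = 0.94) and 0.60 without those 2 highest cows. With bta-miR-142-5p it was 0.89 (rho = 0.94) and 0.93 without them. With bta-miR-155 and bta-miR-223 it was -0.16 and -0.02 (rho = -0.09 for both), and 0.60 and -0.49 without them, so these relations are not settled by 6 cows. The part of red blood cell miRNAs in the levels of bta-miR-150 and bta-miR-142-5p was not tested. Without control cow 1 and tested cow 1, 0 of the 4 white blood cell miRNAs and 20 of the 580 miRNAs tested were called. The log2 fold change was then -0.20 for bta-miR-150, -1.03 for bta-miR-142-5p, -0.55 for bta-miR-155 and 1.47 for bta-miR-223, the last above all values with 1 cow left out.

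**Figure D5:**
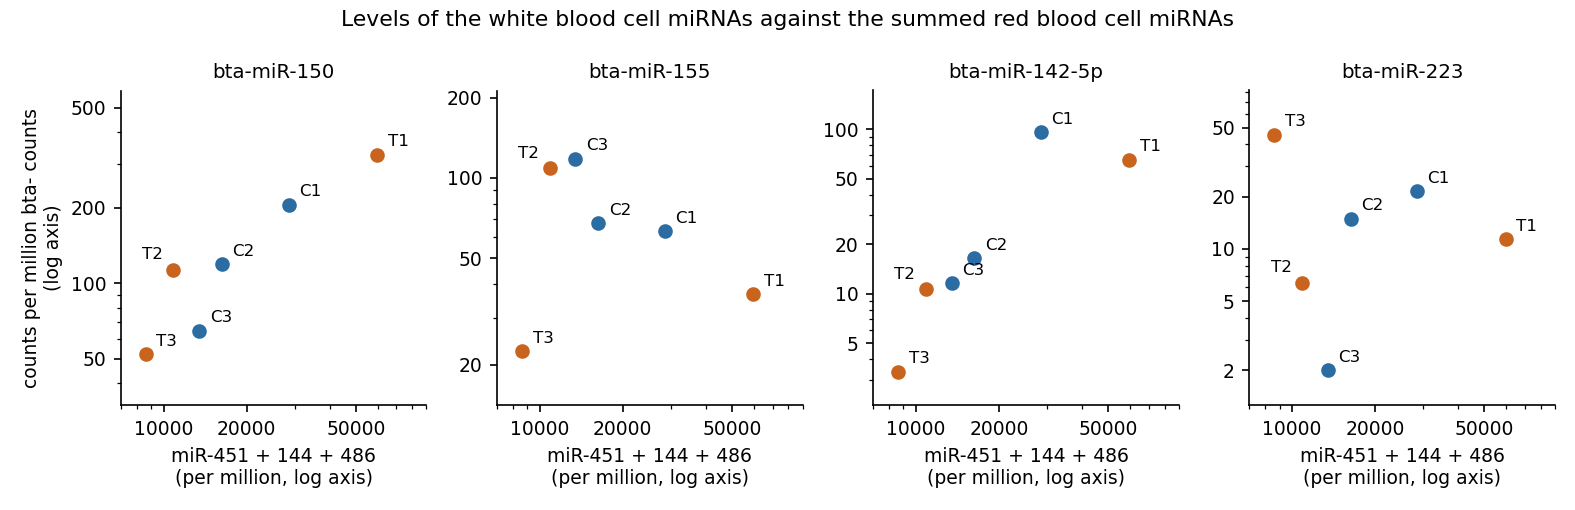
Level of each white blood cell miRNA against the summed level of bta-miR-451, bta-miR-144 and bta-miR-486 in each library (CPM, log axes; blue control C1 to C3, orange tested T1 to T3). bta-miR-150 and bta-miR-142-5p are high in C1 and T1, where the sum is 28434 and 59608 CPM, and bta-miR-223 is highest in T3, where the sum is lowest.

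Among the other 183 known miRNAs with a mean of at least 10 CPM, the profiles most like bta-miR-150 were those of bta-miR-10a (r = 0.98), bta-miR-144 (r = 0.97) and the liver miRNA bta-miR-122 (r = 0.97). For bta-miR-142-5p they were bta-miR-362-5p (r = 0.96), bta-miR-122 and bta-miR-10a (both r = 0.95). bta-miR-122 had 462, 252 and 182 CPM in control cows against 598, 200.1 and 149.9 in tested cows, highest in the same cow 1 of either group. Its r without these 2 cows was 0.90 with bta-miR-150 and 0.91 with bta-miR-142-5p. Of the other liver miRNAs, bta-miR-192 had 1108, 1015 and 844 CPM in control cows against 1352, 872 and 960.1 in tested cows, also highest in cow 1 of either group. bta-miR-194 had 20.2, 84.6 and 42.2 CPM in control cows against 73.4, 58.0 and 70.4 in tested cows. It was thus lowest in control cow 1, while tested cow 1 was the highest of the tested cows. The summed liver list had r = 0.91 with bta-miR-150 and 0.82 with bta-miR-142-5p, which fell to 0.49 and 0.26 without control cow 1 and tested cow 1. The profiles nearest to bta-miR-155 were bta-miR-1306 (r = 0.91), bta-miR-6119-5p (r = 0.91) and bta-miR-23b-5p (r = 0.90), and those nearest to bta-miR-223 were bta-miR-2285f (r = 0.96), bta-miR-99b (r = 0.93) and bta-miR-22-3p (r = 0.92). Each r was taken over 6 libraries and picked as the highest of many.

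A list of 15 further miRNAs described in blood leukocytes, all with rows, gave 0 called (background 3.21%, or 0.962% of known miRNAs), 7 log2 fold changes above 0 and 8 below, and a median of -0.14. bta-miR-342, of lymphocytes, averaged 902 ± 183 CPM (SD, n = 3) over control cows and 822 ± 20.4 (SD, n = 3) over tested cows. The inflammation-linked bta-miR-146a had 85.2, 38.8 and 17.1 CPM in control cows against 4.08, 3.72 and 83.3 in tested cows. Among the tested cows it was highest in tested cow 3, as were 4 of the 15 in all. Of the rest, 7 were highest in tested cow 2 and 3 in tested cow 1. bta-miR-147 had 12 counts in control cow 1 and 0 in every other cow of both groups. The summed level of the 15 ran from 26202 to 26796 CPM in control cows and from 22080 to 23921 in tested cows, without overlap. bta-miR-92a, which red cells also carry in quantity, made up much of this sum. It had 12504, 13070 and 14591 CPM in control cows against 12550, 7793 and 10069 in tested cows. Its log2 fold change from edgeR was -0.47 (standard error 0.19, unadjusted p = 0.0287, adjusted p = 0.448), too small for a call. The part of red blood cells in its level was not tested. Without bta-miR-92a the summed levels of the groups overlapped, at 12204 to 13698 and 11371 to 14287.

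Other marker lists set the scale for the 4. Epithelial miRNAs summed to between 77918 and 97481 CPM, liver miRNAs to between 1068 and 2024, platelet and vessel miRNAs to between 303 and 929 and muscle miRNAs to between 1.95 and 48.1, where the 4 white blood cell miRNAs summed to between 124 and 439. The test called 0 of 7 epithelial, 0 of 3 liver and 0 of 2 muscle miRNAs. Of the 10 platelet and vessel miRNAs it called 1, bta-miR-199a-3p, with a log2 fold change of 2.66 (adjusted p = 0.448 from edgeR). Its level was 11.1, 22.4 and 6.03 CPM in control cows against 183, 19.2 and 58.4 in tested cows. The groups thus overlapped, and tested cow 1 was far above the rest. The background of known miRNAs called was 0.962%, and no test was made of whether the list differed from it.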

How the data were processed

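The authors kept reads of small RNA libraries after trimming and quality filtering, matched them to the bovine genome, removed other RNA classes, named known miRNAs by miRBase and added ones predicted by miRDeep2. The submitters' processing notes name cutadapt 1.14, Bowtie and the build ARS-UCD1.2. The counting tool is not given in the sources used here. The counts that the authors deposited are whole reads per miRNA without normalization. The values deposited under the label TPM are RPM, the same counts scaled to 1000000 clean reads of the library, and served as an alternative scale. The authors' own fold changes, test scores and p-values, and their list of differently expressed miRNAs, were not used.

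Counts were tested with edgeR 4.0.16 in R 4.3.3 (TMM, estimateDisp, glmQLFit, glmQLFTest) on the 623 of 706 miRNAs with a summed count of at least 10, and p-values were adjusted by Benjamini and Hochberg over all 623. All 4 members passed this filter. The standard error is the log2 fold change divided by the root of F, and its interval uses the degrees of freedom of the test. The biological coefficient of variation was 129%. Levels, exact Clopper-Pearson intervals and exact permutation tests were computed in Python 3.11.15 (SciPy 1.17.1, pandas 2.3.3, NumPy 2.4.6), and plots were drawn with Matplotlib 3.10.9. Alternatives were DESeq2 1.42.0, limma 3.58.1 on log2(CPM + 1), other scalings, filters and totals, a replicate block and left-out libraries. The fits were tested on simulated data.

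The miRNAs named are the 5 members, rows sharing their seed or nested with them, the 3 most like profiles each, the lists for white and red blood cells, further leukocyte miRNAs, platelets and vessels, liver, epithelium and muscle, and bta-miR-26a. The members and lists were chosen with earlier results of these data known. The fit without control cow 1 and tested cow 1 was added after the data were seen. Cows are separate animals, and no library was left out of the reported values.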

Additional observations from a re-analysis of the deposited data

How the results depend on the processing

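None of the 4 white blood cell miRNAs was called in any of the 17 alternative fits, in which their unadjusted p ran from 0.121 to 0.974 and their adjusted p was at least 0.596. The log2 fold change turned sign for bta-miR-142-5p without control cow 1 (0.82), for bta-miR-150 without tested cow 1 (-0.64) and without control cow 1 and tested cow 1 together (-0.20), and for bta-miR-223 without tested cow 3 (-0.47). The log2 ratio of mean levels turned with the same single cows, to 0.92, -0.65 and -0.53, and for bta-miR-150 also when levels were scaled to clean reads (-0.08). bta-miR-155 kept its sign throughout. With each cow left out in turn, the log2 fold change ran from -2.50 to 0.82 for bta-miR-142-5p, from -0.64 to 0.77 for bta-miR-150, from -1.62 to -0.15 for bta-miR-155 and from -0.47 to 1.19 for bta-miR-223. The log2 ratio of mean levels then ran from -2.56 to 0.92, from -0.65 to 0.83, from -1.49 to -0.19 and from -0.53 to 1.32. In the same fits the members called stayed at 0 and the miRNAs called over all tested ran from 17 to 23. The latter count was 34 with limma, 13 with filterByExpr, 6 of 312 with known miRNAs only (3 of these 312 in the fit over all 623) and 12 with the replicate number as a block. The cause of these counts was not tested. Deviations of libraries with the same number had r of -0.058, -0.048 and -0.019 over all miRNAs tested. Libraries with different numbers had r from -0.061 to 0.106. This gave no sign of pairing by number, but near-zero values over mostly low counts cannot exclude it. The block called 0 of the 4. At a minimum of 5 counts the 4 miRNAs were detected in 23 of 24 cases, and at 10 in 22. Depth limits bta-miR-223 and bta-miR-142-5p most, with 4 and 7 counts in their lowest libraries.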
